A study of Mus musculus with 6 samples.

Results

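The genes described here are 10 that encode the non-collagen proteins of the basement membrane: the laminin chain genes Lama1, Lama2, Lama4, Lama5, Lamb1, Lamb2 and Lamc1, the nidogen genes Nid1 and Nid2, and Hspg2, which encodes perlecan. They were taken by name from the 47643 gene identifiers of each deposited count table, and all 10 were found. Every library was made from dorsal root ganglia of the CD-1 mouse strain, taken at embryonic day 13. Lentivirus delivered a short hairpin RNA to the cells: a control hairpin in 3 libraries (shControl) and one that targets Uhrf1 in the other 3 (shUHRF1). UHRF1 recognises half-methylated CpG sites after replication and brings in the methyltransferase that restores them. The study asked how transcription changes in uninjured neurons when it is knocked down. The labels do not say whether libraries of a group came from separate cultures, so a p-value here covers only library-to-library spread, possibly technical. The labels name no sorting of cells, and in bulk RNA a change in the number of cells of a type and a change in RNA per cell cannot be told apart.

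A basement membrane is a thin sheet of matrix that surrounds Schwann cells, blood vessels, muscle fibres and nerve fascicles. Laminins are its founding network. Each laminin is a trimer of 1 alpha, 1 beta and 1 gamma chain; the alpha chain carries the domains that bind integrins and dystroglycan, and the gamma1 chain carries the site for nidogen. Nidogens and the heparan sulphate proteoglycan perlecan link the laminin network to the collagen IV network. Laminin is a classical growth substrate of sensory axons, and laminin α2β1γ1 is the main form of the Schwann cell basement membrane.

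The libraries held 15599776 to 22382813 reads in genes, of which the 10 genes took 1689 to 2464 reads in shControl and 2935 to 3940 in shUHRF1. All 13 listed sensory neuron markers were tested, 0 rose and 1, Tubb3, fell (log2 fold change -0.75, edgeR adjusted p = 0.0168). Their summed level was 22350 to 24490 CPM (read counts scaled to a common library size) in shControl and 17460 to 22390 in shUHRF1. Uhrf1, the targeted gene, had 8, 6 and 5 reads in shControl and 2, 1 and 5 in shUHRF1, and its lower level did not pass the test in a fit that kept it despite counts below the low-count limit (edgeR log2 fold change -1.39 ± 0.62, SE, adjusted p = 0.141).

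Among the 10 genes, those of the alpha chains, nidogens, perlecan and the gamma1 chain were higher in shUHRF1, and those of the 2 beta chains did not pass the test. In all, 8 of the 10 genes rose and 0 fell by edgeR's quasi-likelihood test at an adjusted p below 0.05, where 11.6% of all 15573 tested genes rose and 24.0% changed in either direction. The same 8 had groups that did not overlap, as did 44.0% of tested genes (21.7% with shUHRF1 higher). With upper-quartile scaling, which raised the number of rising genes among all tested from 1807 to 2512 and cut the falling ones from 1928 to 1378, 8 members again rose; under it, all tested genes had a median of 0.142. No member was lower at an unadjusted edgeR p below 0.05 (0 of 10), and 0 were lower by DESeq2 or limma-voom; with the replicate number as a block 1, Lamb1, was lower. Lama1, Lama2, Lama4 and Nid2 were below the low-count limit in at least 1 shControl library and entered the test only through their level in shUHRF1. Of the 6 genes above that limit in every shControl library, Lama5, Lamc1, Nid1 and Hspg2 rose and Lamb1 and Lamb2 did not pass. The median log2 fold change was 2.25 over the 10 genes and 0.017 over all genes tested. In 6 of the 10 the rise was at least 4-fold, as it was in 2.84% of tested genes. Of these 6, only Nid1 and Hspg2 were above the low-count limit in every shControl library, so this count and the median lean toward rises.

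**Figure D1:**
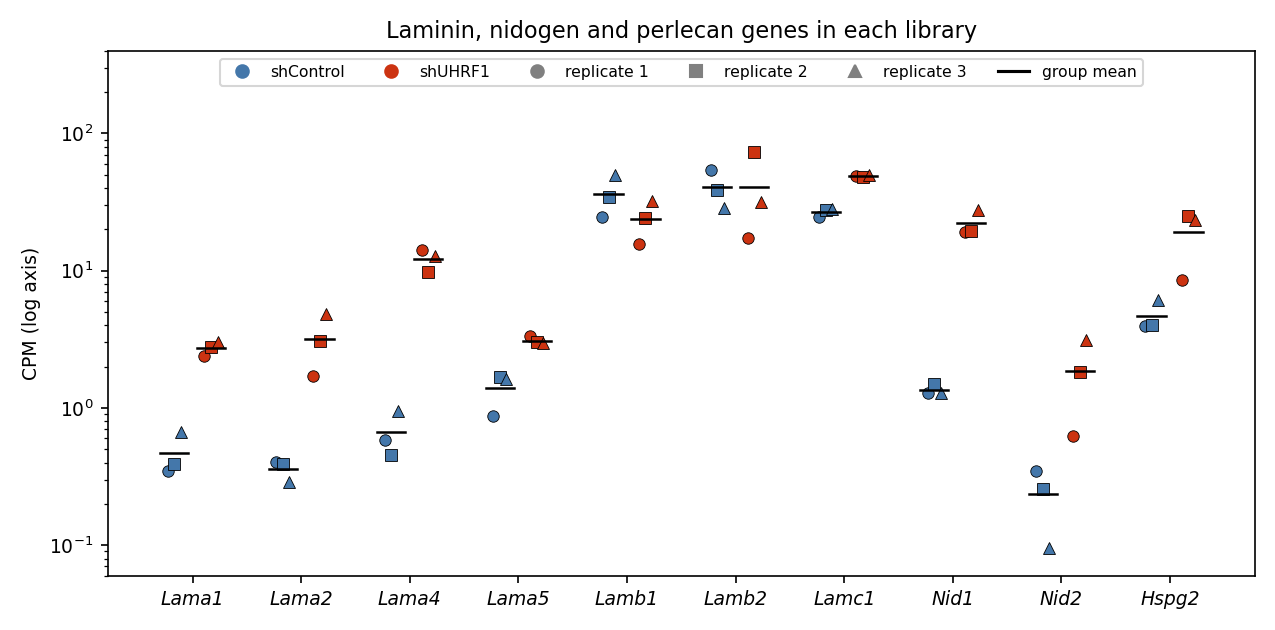
Level of each gene in each library, in CPM on a log axis, with shControl in blue, shUHRF1 in red, the replicate number as the marker shape and the group mean as a bar. The groups are apart for 8 genes and overlap for Lamb1 and Lamb2, which with Lamc1 are the most abundant in shControl.

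Start regions were available from RefSeq (GRCm38.p6) for 6 of the 10 genes, as windows of 300 bases that run from 250 bases before the annotated start to 50 after it. They are shown for 2 genes that rose and for the beta chain genes that did not pass, because UHRF1 acts at CpG dinucleotides and the 4 windows differ widely in how many they hold. Capitals mark each CpG, and the sequences read 5′ to 3′ on the plus strand, which is the strand of all 4 genes.
Nid1, chr13:13437352-13437651: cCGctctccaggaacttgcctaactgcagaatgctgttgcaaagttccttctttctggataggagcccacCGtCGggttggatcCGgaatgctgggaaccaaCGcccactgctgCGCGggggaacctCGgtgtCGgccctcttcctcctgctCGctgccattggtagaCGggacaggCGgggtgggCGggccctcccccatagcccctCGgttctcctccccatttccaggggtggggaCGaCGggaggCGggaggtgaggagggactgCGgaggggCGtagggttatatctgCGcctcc
Hspg2, chr4:137468553-137468852: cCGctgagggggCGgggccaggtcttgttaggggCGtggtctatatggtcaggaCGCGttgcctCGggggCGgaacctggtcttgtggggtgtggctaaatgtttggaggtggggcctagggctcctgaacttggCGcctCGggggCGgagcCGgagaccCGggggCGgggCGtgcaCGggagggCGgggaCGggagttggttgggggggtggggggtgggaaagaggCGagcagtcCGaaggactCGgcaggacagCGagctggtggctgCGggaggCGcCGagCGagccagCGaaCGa
Lamb1, chr12:31265043-31265342: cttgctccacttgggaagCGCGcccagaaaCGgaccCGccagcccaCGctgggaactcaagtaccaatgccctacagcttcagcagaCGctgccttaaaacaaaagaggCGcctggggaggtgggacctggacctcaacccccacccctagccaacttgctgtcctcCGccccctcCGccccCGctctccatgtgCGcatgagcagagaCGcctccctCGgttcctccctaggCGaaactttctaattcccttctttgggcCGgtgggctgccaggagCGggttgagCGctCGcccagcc
Lamb2, chr9:108479612-108479911: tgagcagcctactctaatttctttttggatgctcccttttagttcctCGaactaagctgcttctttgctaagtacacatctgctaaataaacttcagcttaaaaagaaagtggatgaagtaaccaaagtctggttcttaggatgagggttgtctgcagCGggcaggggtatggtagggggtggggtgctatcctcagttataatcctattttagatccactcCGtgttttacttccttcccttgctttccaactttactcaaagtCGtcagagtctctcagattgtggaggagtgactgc
The Nid1 window held 20 CpGs and the Hspg2 window 27, against a median of 7 over 32851 windows of all genes. Of all windows, 73.5% held fewer CpGs than that of Nid1 and 84.5% fewer than that of Hspg2. Lamb1 held 18, close to Nid1, and Lamb2 held 4, with 70.3% and 31.4% of all windows holding fewer. The Lama5 window held 24 CpGs. That of Lama2 held 1, but it lies 2816 bases from the start annotated in GENCODE, so it describes another start. The GC box GGGCGG, searched on both strands, occurred 5 times in Hspg2, 4 in Lama5, 2 in Lamb1, 1 in Nid1, 1 in Lama2 and 0 in Lamb2, and 35.7% of all windows hold it. The AP-1 word TGANTCA was in 0 of the 6 windows (7.8% of all), as was TATAAA (13.6% of all), and CCAAT was in those of Nid1 and Lamb1 (37.4% of all). No methylation was measured in these files.

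Lama4, whose α4 chain is found in vessels, developing nerve and fat, had the largest rise among the alpha chain genes. It lies on chromosome 10 from 38965515 to 39110188 (GRCm38, plus strand). Its level was 0.581, 0.453 and 0.957 CPM in shControl replicates 1, 2 and 3 (10, 7 and 20 reads), against 14.1, 9.77 and 12.7 with shUHRF1 (314, 166 and 263 reads). Every shUHRF1 library was far above every shControl library, and the spread within either group was small beside the gap. Group means were 0.664 ± 0.262 and 12.2 ± 2.21 CPM (SD, n = 3). On the log2 scale the rise was 4.16 ± 0.31 (SE; edgeR adjusted p = 4e-04), and it stayed between 3.95 and 4.53 under 16 other settings, all of them past the threshold.

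Lama1 encodes the α1 chain of early embryonic basement membranes. It lies on chromosome 17 from 67697259 to 67822647. It had 0.348, 0.388 and 0.67 CPM in the controls, against 2.38, 2.77 and 3 with shUHRF1, from 6, 6 and 14 and from 53, 47 and 62 reads. The shUHRF1 libraries were close to each other and above the shControl libraries (log2 fold change 2.49 ± 0.35, SE, edgeR adjusted p = 0.00286). Lama2, on chromosome 10 from 26980036 to 27619758, encodes the α2 chain of Schwann cell and muscle laminin, whose loss causes a congenital muscular dystrophy with neuropathy. It had 0.407, 0.388 and 0.287 CPM in the controls, against 1.71, 3.06 and 4.8 with shUHRF1, or 7, 6 and 6 reads against 38, 52 and 99. Its groups did not overlap either, but its shUHRF1 libraries differed 2.81-fold among themselves (log2 fold change 3.13 ± 0.47, SE, edgeR adjusted p = 0.00383).

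Lama5 encodes the α5 chain of mature epithelial and vascular basement membranes and lies on chromosome 2 from 180176373 to 180225859. Among the alpha chain genes of the set, it was the most abundant per kilobase of exon in shControl and rose the least. Lama3, an alpha chain gene outside the set, had more CPM in every shControl library. Lama5 had 0.871, 1.68 and 1.63 CPM in the controls, against 3.32, 3 and 2.95 with shUHRF1. The groups did not overlap, with a log2 fold change of 1.15 ± 0.31 (SE, edgeR adjusted p = 0.0328). This call was lost when any 1 of the 6 libraries was left out, with adjusted p from 0.0535 to 0.0992.

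The 2 beta chain genes went with none of these. Lamb1 lies on chromosome 12 from 31265234 to 31329644, and its β1 chain is part of most embryonic laminins. It had 24.5, 34.5 and 49.9 CPM in the controls, against 15.6, 24 and 32 with shUHRF1. The groups overlapped, but within each replicate number the shUHRF1 library was lower, by a log2 difference of -0.65, -0.52 and -0.64 for numbers 1, 2 and 3. Without a block this gave a log2 fold change of -0.61 ± 0.31 (SE, edgeR adjusted p = 0.201). With the replicate number as a block it was -0.60 ± 0.11 (SE), past the threshold (edgeR adjusted p = 0.00853), in a fit where 15.7% of tested genes fell.

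Lamb2 encodes the β2 chain of synaptic, kidney and vascular basement membranes and lies on chromosome 9 from 108479736 to 108490530. It had 53.8, 38.7 and 28.8 CPM in the controls, against 17.2, 72.7 and 31.9 with shUHRF1. These are both the lowest and the highest value of the gene in the same group, a 4.23-fold range. Its log2 fold change was 0.002 ± 0.472 (SE, edgeR adjusted p = 0.998). That value was -0.74 without shUHRF1 replicate 2 (edgeR adjusted p = 0.146), and also below 0 without shControl replicate 2 or 3 (-0.045 and -0.20), so no direction can be given.

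Lamc1 encodes the γ1 chain, which nearly all laminin trimers of these tissues share and which binds nidogen. It lies on chromosome 1 from 153218922 to 153332786, minus strand. It was the steadiest of the 10 genes, at 24.8, 27.5 and 28.2 CPM in the controls, against 49, 48 and 49.4 with shUHRF1. The libraries of a group differed at most 1.14-fold, and the groups were fully apart. Mean levels were 26.8 ± 1.78 and 48.8 ± 0.701 CPM (SD, n = 3). Its log2 fold change was 0.86 ± 0.11 (SE, edgeR adjusted p = 0.00197), and 16 of 16 other settings kept the call.

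Nid1 encodes nidogen-1, the glycoprotein that bridges the laminin γ1 chain and collagen IV. It lies on chromosome 13 from 13437551 to 13512269. It had 22, 23 and 27 reads in shControl, or 1.28, 1.49 and 1.29 CPM, and 429, 333 and 569 reads in shUHRF1, or 19.3, 19.6 and 27.6 CPM. No shControl library came near any shUHRF1 library. Its log2 fold change was 4.03 ± 0.22 (SE, edgeR adjusted p = 0.000205), and by unadjusted p it ranked 7 among the 15573 tested genes. Its paralog Nid2, on chromosome 14 from 19751265 to 19811787, had 6, 4 and 2 reads in shControl and 14, 31 and 64 in shUHRF1. The groups did not overlap, but shUHRF1 replicate 1, at 0.629 CPM, was nearer to shControl replicate 1, at 0.348 CPM, than to shUHRF1 replicate 3, at 3.1 CPM.

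For Nid2 the log2 fold change was 2.98 ± 0.70 (SE, edgeR adjusted p = 0.0195). The call was lost without shControl replicate 1, 2 or 3 (adjusted p = 0.0515, 0.0548 and 0.0806) and without shUHRF1 replicate 3 (0.0701). Exons of Nid2 share 437 bases, 8.45% of its exonic bases, with Rtraf on the opposite strand, and without a known strand setting reads of the shared bases cannot be assigned to 1 gene. Rtraf had 618, 589 and 798 reads in shControl and 1019, 594 and 942 with shUHRF1 (a log2 difference of 0.17, edgeR adjusted p = 0.399). Antisense genes also overlap 2.06% of the exonic bases of Nid1 and 3.86% of those of Lama2.

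Hspg2 encodes perlecan, a large proteoglycan that binds growth factors and anchors acetylcholinesterase at the neuromuscular junction. It lies on chromosome 4 from 137468769 to 137570630. It had 3.95, 4.01 and 6.07 CPM in the controls, against 8.62, 25 and 23.5 with shUHRF1. All shUHRF1 libraries were higher, replicate 1 by the smallest margin. Its log2 fold change was 2.01 ± 0.40 (SE, edgeR adjusted p = 0.0109). On the library pairs numbered 1 and 3 alone it was 1.67 and did not pass (edgeR adjusted p = 0.0676), a check added after the data were seen.

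**Figure D2:**
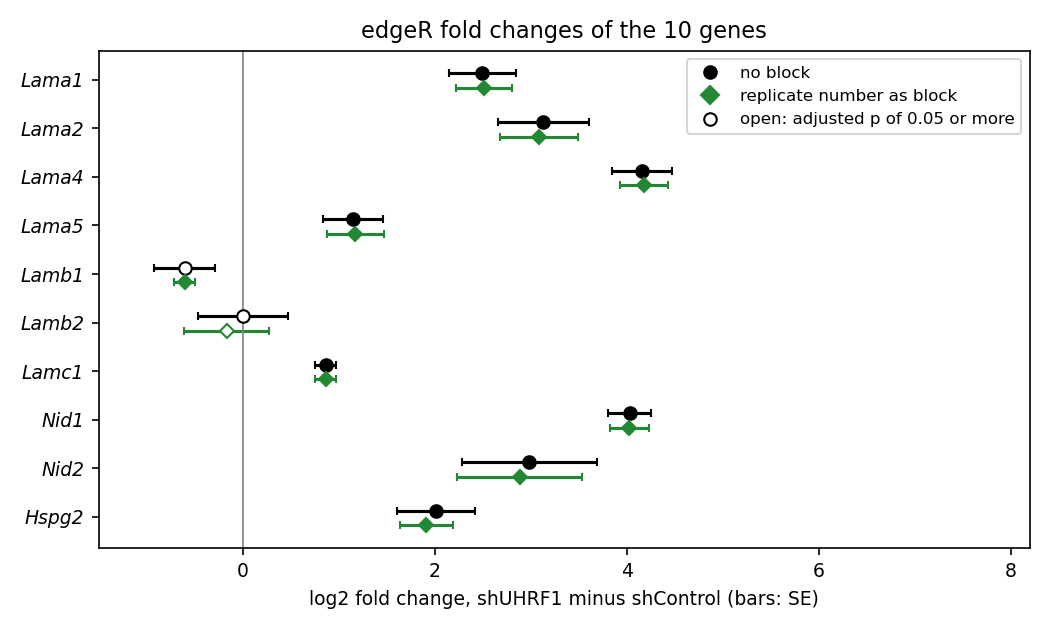
Log2 fold change of each gene (shUHRF1 minus shControl) with its standard error, from the fit without a block (circles) and with the replicate number as a block (diamonds), where open symbols have an adjusted p of 0.05 or more. Only Lamb1 changes its call, with nearly the same fold change (-0.61 and -0.60) and a smaller error.

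Levels of different genes were set against each other per kilobase of exon. In shControl, Lamb2, Lamb1 and Lamc1 had the highest levels, at 6.65 ± 2.07, 3.66 ± 1.29 and 3.24 ± 0.215 CPM per kilobase (SD, n = 3). The range of Lamb1 overlapped with those of Lamb2 and Lamc1, which did not overlap with each other. All others were far lower, from 0.327 for Hspg2 and 0.195 for Nid1 to 0.0221 for Lama2, and the ranges of Lama5, Lama4, Lama1, Nid2 and Lama2 each overlapped with that of the next. In shUHRF1 the order was Lamb2 at 6.68 ± 4.73, Lamc1 at 5.90 ± 0.0848, Nid1 at 3.19 ± 0.676, Lamb1 at 2.41 ± 0.824, Hspg2 at 1.33 ± 0.632 and Lama4 at 1.01 ± 0.183 CPM per kilobase, and of these neighbours only Lamc1 and Nid1 had ranges that did not overlap. Nid1, below Lamb1 in every shControl library, had a range that overlapped that of Lamb1 in shUHRF1. With the longest transcript in place of all exonic bases, Lamb1 and Lamc1 no longer overlapped in shControl, and in shUHRF1 Lamb1 stood above Nid1 and Lama4 above Hspg2. Lama4 then also stood above Lama5 in shControl replicates 1 and 3.

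Summed by role, beta chains made up 75.3%, 70.5% and 69.2% of the per-kilobase level of the 10 genes in the shControl libraries and 28.2%, 54% and 37.5% in the shUHRF1 libraries. Nidogens went from 1.7%, 1.9% and 1.4% to 18.5%, 11.9% and 20.3%, and alpha chains from 1.2%, 1.8% and 2.2% to 11.6%, 5.8% and 8.5%. The shares of all 3 roles were fully apart between the groups. The beta sum itself was 11.3, 9.85 and 9.77 CPM per kilobase in shControl and 4.4, 14.4 and 8.46 in shUHRF1, so its lower share came with a level that overlapped. Within the alpha chains of the set, counted over all exonic bases and without Lama3, Lama5 held 41.2% to 59.3% in shControl and 13.5% to 17% in shUHRF1. Lama4 held 15.1% to 25.9% and 52.4% to 64.5%.

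**Figure D3:**
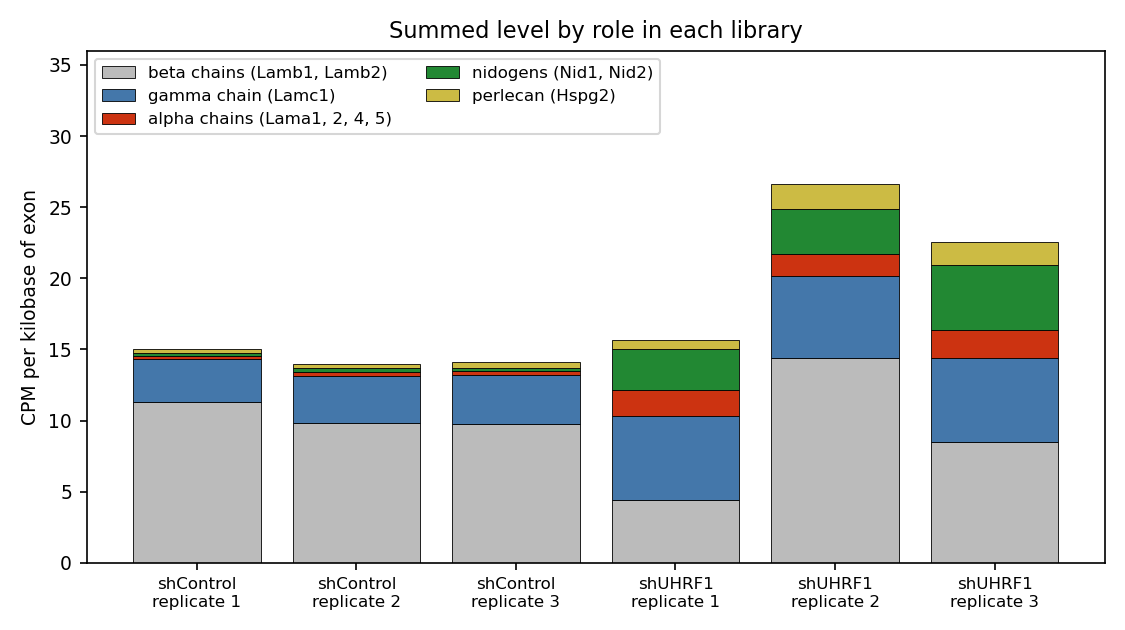
Summed level per kilobase of exon in each library, stacked by role. Grey beta chains fill most of each shControl bar (69.2% to 75.3%), while green nidogens and red alpha chains are thin there and make up 11.9% to 20.3% and 5.8% to 11.6% of the shUHRF1 bars.

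Ratios within a library do not depend on how libraries are scaled, and 5 were compared with two-sided exact permutation tests, which with 3 against 3 libraries cannot give a p below 0.1. The log2 ratio of the summed alpha chains to Lamc1, per kilobase, was -4.01, -3.74 and -3.46 in shControl and -1.71, -1.91 and -1.64 in shUHRF1, a difference of 1.99 (exact p = 0.1, 0.167 adjusted over the 5 ratios). Transcripts of these alpha chains thus stayed below those of the gamma1 chain in every library, but by a smaller margin in shUHRF1. The sum leaves out Lama3, which lies outside the set and did not pass the test. Lama3 had 5.98, 12.6 and 10.5 CPM in shControl and 8.08, 11.9 and 10.7 in shUHRF1. In shControl that was above each alpha chain gene of the set, so the difference describes the set alone. For the summed beta chains the log2 ratio to Lamc1 was 1.92, 1.57 and 1.52 in shControl and -0.43, 1.31 and 0.50 in shUHRF1, a difference of -1.21 (exact p = 0.1, adjusted 0.167). Here too the groups did not overlap, although shUHRF1 replicate 2 lay close to the shControl libraries. The difference was -0.76 without shUHRF1 replicate 1 and -1.63 without replicate 2.

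The log2 ratio of Lama4 to Lama5 reads was -0.56, -1.82 and -0.75 in shControl and 2.08, 1.69 and 2.10 in shUHRF1, a difference of 3.001 (exact p = 0.1, adjusted 0.167). Reads are not corrected for gene length, so the sign alone does not say which gene was more abundant. Per kilobase of the longest transcript, Lama4 was above Lama5 in shControl replicates 1 (0.096 and 0.0765 CPM) and 3 (0.158 and 0.143 CPM). The ratio of Nid1 to Nid2 overlapped between the groups, at 1.79, 2.39 and 3.46 and at 4.89, 3.40 and 3.14 (difference 1.27, exact p = 0.3, adjusted 0.375). That of Lamb1 to Lamb2 overlapped as well, at -1.14, -0.17 and 0.79 and at -0.14, -1.60 and 0.004 (difference -0.41, exact p = 0.7, adjusted 0.7). The difference of the beta chain ratio turned to 0.075 without shControl replicate 3 and to 0.10 without shUHRF1 replicate 2.

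**Figure D4:**
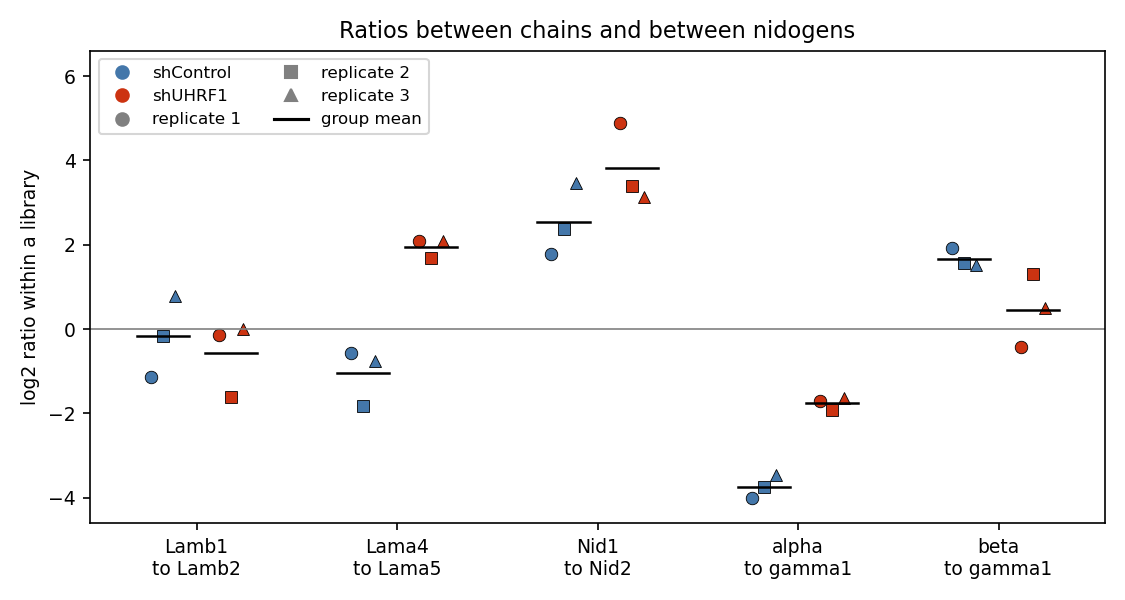
Log2 ratios within each library for 5 pairs, with shControl in blue, shUHRF1 in red, replicate numbers as marker shapes and group means as bars. The groups are apart for Lama4 to Lama5, alpha to gamma1 and beta to gamma1, and overlap for the other two.

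The members differed in which shUHRF1 library was high. Replicate 1 had the lowest level of the group for Lama1, Lama2, Lamb1, Lamb2, Nid1, Nid2 and Hspg2, and the highest for Lama4 and Lama5. Replicate 3 had the highest for Lama1, Lama2, Lamb1, Lamc1, Nid1 and Nid2. By the root mean square distance between centred log2(CPM + 1) values over the 6 libraries, the closest pairs within the set were Lama5 with Lamc1 (0.126), Lama2 with Nid2 (0.238) and Lama1 with Lamc1 (0.269). Lama4 was closest to Nid1 (0.29) and Hspg2 to Lama2 (0.335), while Lamb1 and Lamb2 were each other's nearest at a much larger distance (0.764). Among the other tested genes, the nearest to Nid1 was the collagen gene Col1a2 (0.211), to Lama4 Pctp (0.119), to Lama2 Dock1 (0.151), to Nid2 Kirrel (0.138), to Hspg2 Kndc1 (0.175) and to Lama5 Llgl2 (0.069). Ndrg2 (0.106), Cnga4 (0.044), Hmx1 (0.068) and Cdhr1 (0.141) were nearest to Lama1, Lamc1, Lamb1 and Lamb2. The 1 CPM added before the logarithm shrinks the changes of rare genes, so a distance does not compare fold changes.

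Markers of other cell types moved in the same libraries. Several entered the test only through their level in shUHRF1, because at least 1 shControl library was below the low-count limit: 4 of the 8 fibroblast markers that rose, 6 of 7 for Schwann cells and satellite glia, 4 of 4 for macrophages and 1 of 4 for endothelial and mural cells. Of 12 fibroblast markers 8 were tested and 8 rose, with a summed level of 7.96 to 9.90 CPM in shControl and 72.6 to 166 in shUHRF1. Of 12 Schwann cell and satellite glia markers 10 were tested, 7 rose and 1, Mbp, fell. Their sum overlapped, at 436 to 544 and 115 to 488 CPM, but most of it came from S100b, Pmp22 and Mbp. S100b had 266, 218 and 260 CPM in shControl and 39.4, 281 and 192 in shUHRF1. Its log2 fold change was -0.54 (edgeR adjusted p = 0.525), that of Pmp22 -1.06 (edgeR adjusted p = 0.265) and that of Mbp -0.95 (edgeR adjusted p = 0.0217). The 7 that rose held a smaller part of the sum. Among them, the Schwann cell determinant Sox10 had 3, 7 and 5 reads in shControl and 34, 30 and 59 in shUHRF1. Of 10 macrophage markers 7 were tested and 4 rose, with sums of 5.503 to 11.15 and 15.8 to 41 CPM. Of 16 endothelial and mural markers 9 were tested and 4 rose (Eng, Pdgfrb, Cspg4 and Notch3), with overlapping sums of 46.2 to 49.4 and 47.2 to 66.9 CPM.

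The endothelial cadherin gene Cdh5 had 2, 0 and 1 reads in shControl and 2, 3 and 6 in shUHRF1, Tie1 had 1, 1 and 2 and then 0 in each shUHRF1 library, and Emcn had 0 reads in shControl. Of the tested markers of that list, Pecam1, Tek and Egfl7 did not pass (log2 fold change -0.34, 0.19 and -0.13, edgeR adjusted p = 0.583, 0.676 and 0.634). Nor did Rgs5 and Acta2 (0.98 and 0.94, edgeR adjusted p = 0.132 and 0.181). Egfl7 made up most of the summed level, at 32.7, 36 and 36.8 CPM in shControl and 24, 34.7 and 37.6 in shUHRF1. Others of that list rose: Eng had 3, 3 and 5 reads and then 24 in each shUHRF1 library. Pdgfrb had 71, 44 and 112 reads in shControl and 214, 214 and 242 in shUHRF1. The fibroblast regulator Prrx1 had 0, 1 and 0 reads in shControl and 2, 7 and 11 in shUHRF1, whereas Twist2 had 5, 22 and 8 and then 2, 2 and 5. The part of these cells in the levels of the 10 genes was not tested. Among the shUHRF1 libraries the summed fibroblast markers were highest in replicate 3 and lowest in replicate 1, although Dcn and Fap were highest in replicate 1. Of the 10 genes, Lama1, Lama2, Lamb1, Nid1 and Nid2 had the order of the sum, and Lama4, Lama5, Lamb2, Lamc1 and Hspg2 did not. The levels of Lamc1 differed only 1.03-fold there. In shControl, Lamb1 and the summed fibroblast markers also rose from replicate 1 to 3. An order of 3 libraries is easily shared, and the share of all tested genes with this order is not given here.

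Genes for the partners of these proteins were read from 6 lists by role. Of 67 listed genes 59 were tested, and 18 rose and 8 fell; for all tested genes the shares were 11.6% and 12.4%. Of these 59, 12 were below the low-count limit in at least 1 shControl library, which leans the counts toward rises. All of these 12 except Itga1 and Frem2, named after their values were seen, were among the 18 rises. All 8 that fell were above the limit in every shControl library. The other laminin chain genes gave no call: Lama3 had a log2 fold change of 0.07 (edgeR adjusted p = 0.882), with 0 of the list called at an unadjusted p below 0.05 and 0 by DESeq2 or limma-voom, and Lamb3 and Lamc3 were too rare to test, with at most 11 and 17 reads in a library. Without the low-count filter 1 of the 4 rose.

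Among basement membrane collagens and agrin 4 of 6 tested genes rose, with a median log2 fold change of 1.56, and 0 fell by edgeR or DESeq2, with 1 lower at an unadjusted p below 0.05. Col18a1, the source of endostatin, had 5.40, 3.43 and 7.03 CPM in the controls, against 16.8, 21.1 and 26 with shUHRF1 (log2 fold change 1.999 ± 0.281, SE, edgeR adjusted p = 0.00296). Col4a5, a chain of specialised collagen IV networks, rose from 0, 1 and 3 reads to 24, 23 and 30. Col4a2 and Col4a4 rose by 0.87 and 1.59 on the log2 scale (edgeR adjusted p = 0.0468 and 0.0257), and each call held in only 1 of 6 fits with a library left out. Both Col4a4 and Col4a5 were below the low-count limit in at least 1 shControl library. Col4a2 forms the common collagen IV network with Col4a1, which had a log2 fold change of 1.53 (edgeR adjusted p = 0.0541, not called), an example chosen after its value was seen. Agrn, also named afterwards, was lower by -0.47 (edgeR adjusted p = 0.129) and passed with the replicate block (edgeR adjusted p = 0.0183). Without the low-count filter 7 of the 9 listed genes rose and 1 fell.

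Laminin receptor genes moved both ways, with 4 of 13 higher, 4 lower and a median log2 fold change of 0.32. Itga6, the α6 integrin subunit, had 0.581, 1.10 and 1.58 CPM in the controls, against 6.74, 7.71 and 10.4 with shUHRF1 (log2 fold change 2.91 ± 0.36, SE, edgeR adjusted p = 0.00195). Its partner Itgb4 had 2.38, 1.94 and 2.49 CPM and 9.61, 5.71 and 6.30 CPM (log2 fold change 1.66 ± 0.27, SE, edgeR adjusted p = 0.00502). Itgb1, the β1 subunit that most laminin-binding integrins share, fell from 370, 385 and 393 CPM to 176, 237 and 225 CPM (log2 fold change -0.85 ± 0.14, SE, edgeR adjusted p = 0.0047). Sdc2, a heparan sulphate proteoglycan of the cell surface, fell by 1.06 on the log2 scale (edgeR adjusted p = 0.00474). All 4 kept their calls with each library left out in turn.

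The other called receptor genes, named after their values were seen, were Itga3 and Itga7, lower by -0.67 and -1.07 on the log2 scale, and Itga2 and Sdc4, higher by 1.91 and 2.29. Itga3 kept its call with each library left out, Itga7 in 3 of 6 such fits, Itga2 in 2 of 6 and Sdc4 in 1 of the 5 that tested it. Both Itga2 and Sdc4 were below the low-count limit in at least 1 shControl library. Dag1, which encodes dystroglycan, had 58 to 70 CPM in the controls and 68.8 to 72 with shUHRF1 (log2 fold change 0.12, edgeR adjusted p = 0.466). Enzymes that build the laminin-binding glycan of dystroglycan fell in 3 of 11 cases and rose in 0, with 0 higher at an unadjusted edgeR p below 0.05 or by DESeq2. They included the mannosyltransferase genes Pomt2 and Pomt1, at -1.34 and -0.77 on the log2 scale (edgeR adjusted p = 0.00562 and 0.0132). B4gat1 had -0.25 (edgeR adjusted p = 0.0996), and 85.3% of its exonic bases overlap another annotated gene. Pomt2 held its call with each library left out, and Pomt1 in 4 of 6 fits.

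Matrix proteins that associate with basement membranes rose in 8 of 16 tested cases, and 0 fell by edgeR, DESeq2 or limma-voom or at an unadjusted p below 0.05. Their median log2 fold change was 1.29. Sparc, a collagen-binding protein, had 1.22, 2.20 and 1.34 CPM in the controls, against 16.4, 23.8 and 36.7 with shUHRF1 (log2 fold change 4.02 ± 0.37, SE, edgeR adjusted p = 0.000772). The fibulin gene Fbln5 rose by 4.56, the hemicentin gene Hmcn1 by 2.91 and Fras1, a component of epidermal basement membranes, by 1.28 on the log2 scale (edgeR adjusted p = 0.00164, 0.00557 and 0.00573). Both Fbln5 and Hmcn1 were below the low-count limit in at least 1 shControl library, with 3, 1 and 6 and with 13, 16 and 9 reads in shControl. Of these 16 genes, 7 were below the low-count limit in at least 1 shControl library, and all of the 7 except Frem2 were among the 8 rises. Genes of collagen processing and cross-linking were mixed, with 2 of 11 higher and 1 lower. The collagen chaperone gene Serpinh1 and the peroxidasin gene Pxdn rose by 1.23 and 0.51, and the lysyl hydroxylase gene Plod1 fell by 1.90 on the log2 scale (edgeR adjusted p = 0.0237, 0.0309 and 0.00964), while P4ha1 had -0.53 (edgeR adjusted p = 0.0763) and passed with the replicate block (edgeR adjusted p = 0.0331). With 1 library left out, Serpinh1 held its call in 3 of 6 fits and Pxdn in 1.

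**Figure D5:**
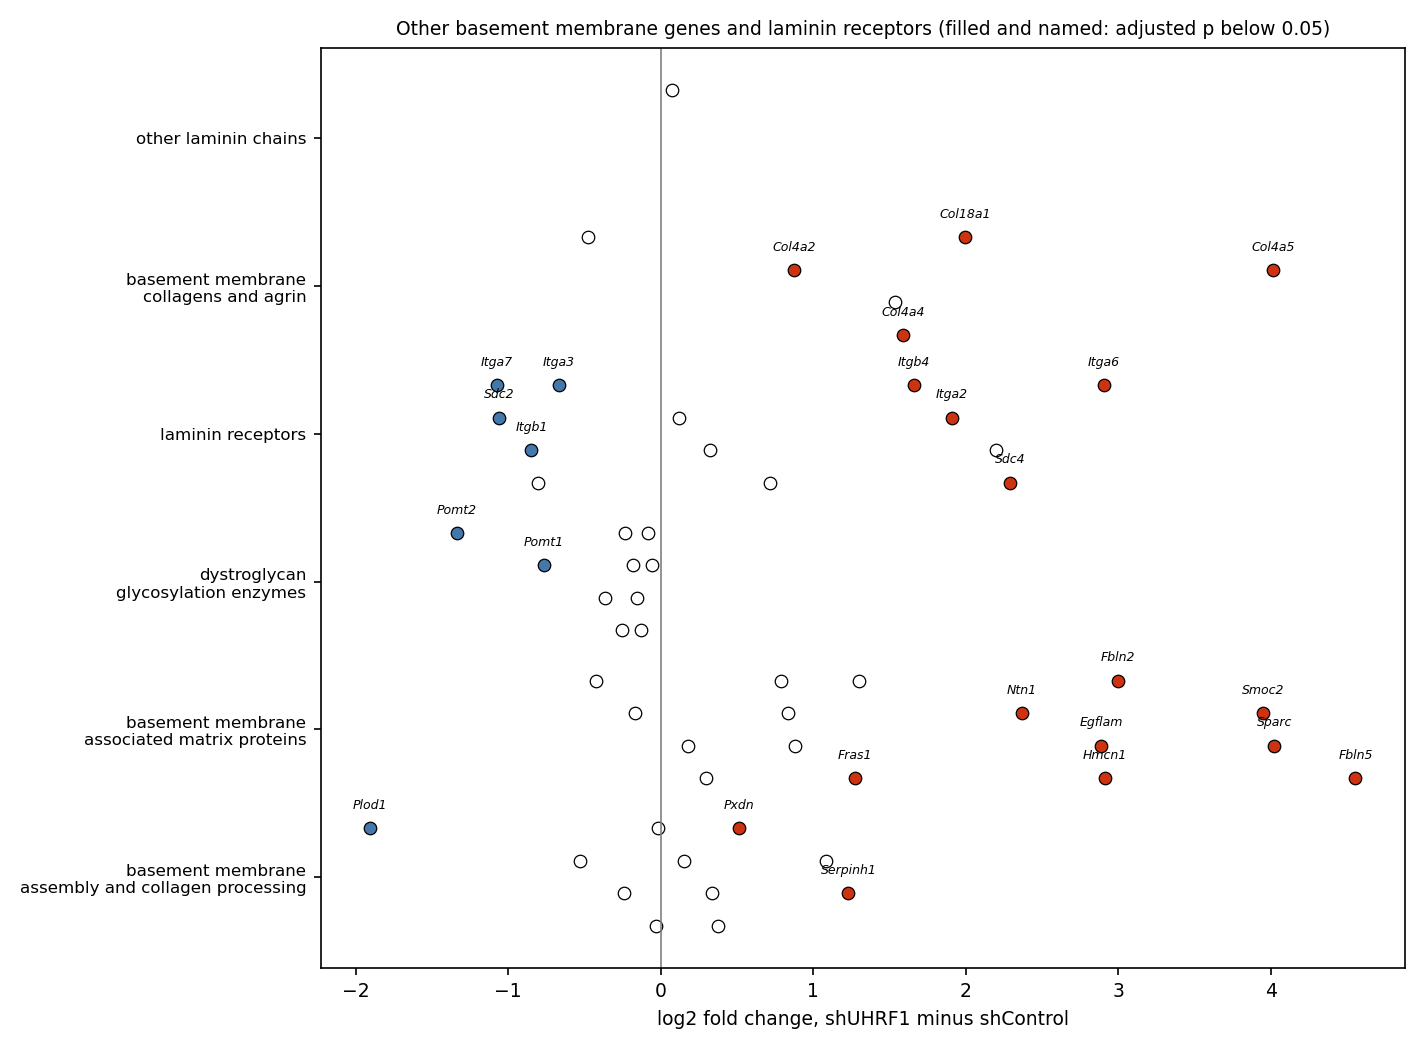
Log2 fold change (shUHRF1 minus shControl) of the tested genes of the 6 lists, 2 of them left out, 1 row of the axis per list, with points staggered for legibility. Filled and named points passed (red higher, blue lower), and the receptor row holds 4 of each.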

How the data were processed

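Per the labels' protocols, libraries were made from column-purified, DNase-treated total RNA after ribosomal RNA depletion, with SMARTer cDNA synthesis. The authors deposited raw read counts per gene for each of 6 libraries, 3 per group. Tools named in the submitters' processing notes are STAR, HTSeq, FastQC and DESeq2, with build mm10. Their versions, the annotation and the strand setting were not stated. HTSeq's 5 summary lines were left out of totals and held, as shares of a library's entries, 8.43% to 17.18% outside genes, 30.5% to 37.28% with several alignments and 2.12% to 2.27% ambiguous. Symbols, exon lengths and coordinates came from GENCODE M21 (GRCm38), which matched 47224 of 47643 identifiers.

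edgeR 4.0.16 (R 4.3.3) was run with filterByExpr (0.524 CPM in at least 3 libraries), TMM factors and the two-sided quasi-likelihood F test, adjusted over all tested genes by Benjamini-Hochberg; CPM use TMM-scaled totals. Standard errors come from the F statistic. Ratios of Lama4 to Lama5 and of Nid1 to Nid2 had 0.5 added to each count. The fit was checked on simulated counts. Alternatives were DESeq2 1.42.0, limma-voom (limma 3.58.1), RLE and upper-quartile factors, no filter, a filter of 2 CPM in 3 libraries, the replicate block, an offset for GC content and length, both together, and each library left out. Libraries that share a number deviated together from their group means (r of 0.325, 0.401 and 0.4 across genes). The replicate block takes numbers as pairing the libraries, a pairing inferred from the data. The main fit and the permutation tests used no pairing. The members, gene lists and rules were chosen with earlier results of these data known. All 10 members are named, and up to 4 genes with the smallest p in each list. Dag1, Lamb3, Lamc3 and the list genes marked as named after their values were seen fall outside this rule. Of the listed genes, 2 are counted but not reported singly here.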

Additional observations from a re-analysis of the deposited data

How the results depend on the processing

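Of the 10 genes, Lama1, Lama4, Lamc1 and Nid1 kept direction and call under all 16 alternatives, and Lama2 under the 15 in which it was tested. The 8 rises were 6 to 7 with 1 library left out and 5 on library pairs 1 and 3 alone, an alternative added after the data were seen. The stricter filter tested 8 members, without Lama2 and Nid2. With the replicate block 1 member fell (Lamb1), as it did with the block and the GC and length offset (1); the block changed no other call among the 10. The log2 fold change of Lamb2 turned negative with limma-voom (-0.22), no low-count filter (-0.034), the replicate block (-0.17), the block with the offset (-0.013) and library pairs 1 and 3 (-0.76), and ranged from -0.74 to 0.37 with 1 library left out; the cause was not tested. Among all genes, 1807 higher and 1928 lower became 822 to 1814 and 946 to 2074 with 1 library left out. They were 822 and 946 without shControl replicate 3, 933 and 1085 without shControl replicate 1 and 1022 and 1149 without shUHRF1 replicate 3. The 18 higher and 8 lower genes of the role lists became 11 to 20 and 5 to 11, with 11 higher without shControl replicate 1 or 3 and 5 lower without shControl replicate 3. With 1 library left out, the difference in the log2 ratio of Lamb1 to Lamb2 ranged from -0.89 to 0.10, and that of alpha to gamma1 was 2.34 with longest-transcript lengths. Depth limits Lama1, Lama2, Lama4 and Nid2, with 12 to 37 reads over all shControl libraries.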
